A study of Mus musculus with 14 samples.

Results

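Chemokines are small secreted proteins that direct the movement of leukocytes, and they are grouped into CC, CXC, CX3C and XC classes by the spacing of conserved cysteines near the amino terminus. Here they comprise 34 genes of the 22180 that were tested: every gene whose symbol is Ccl or Cxcl followed by a number and an optional letter, plus Cx3cl1 and Xcl1. A gene entered through a probe set annotated with 1 symbol, and where there were several such probe sets the brightest over the 14 arrays was used. All 34 symbols were found in RefSeq with the same gene ID as in the platform annotation. RefSeq lists Cxcl11 of the C57BL/6J reference strain as a transcribed pseudogene.

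The arrays measured liver RNA of 14 male C57BL/6 mice, 1 liver per array. Every mouse carried Alb-Cre, which places Cre recombinase under the albumin promoter, so that recombination is directed to hepatocytes. Lmna encodes lamins A and C of the nuclear lamina. The groups differ in the number of floxed Lmna copies and in diet. On standard chow there were 2 livers with no floxed copy (LMNA +/+, called WT; arrays G1 and N1, 27 and 24.6 weeks old) and 3 with 1 copy (LMNA flx/+, called HET; F1, F2 and P1, 24 to 26.4 weeks). The other chow group had 3 livers with 2 copies (LMNA flx/flx, called KO; H1, H2 and I1, 38.9 weeks). The remaining 3 HET livers (A2, B1 and B2, 30 to 30.4 weeks) and 3 KO livers (C2, C3 and C4, 35.3 weeks) came from mice fed the Surwit diet, high in fat and sugar, for 14 weeks. Carbohydrate was added to their water at 42 g/L (55% fructose, 45% sucrose), and diet and water together are called HFD. HET livers, the main comparison group, therefore carry Cre and 1 floxed copy themselves, and KO mice were older than HET mice by 13.30 weeks on chow and 5.17 weeks on HFD. Age and genotype cannot be told apart in this design.

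In the liver, chemokines are made by hepatocytes, resident Kupffer macrophages, stellate cells, endothelium and the leukocytes that have already entered. Many are induced through NF-kB after engagement of Toll-like receptors or of tumour necrosis factor receptors, and a subset through interferons and the STAT and IRF factors. Each ligand acts on 1 or more G protein-coupled receptors carried by particular leukocytes, so the ligands are described below by the receptors they engage.

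RefSeq promoter windows, 250 bases before to 50 after the annotated start on GRCm38.p6, were held for 23 of the 34 genes. Motifs were searched on both strands: the core of the interferon-stimulated response element (ISRE, GAAANNGAA), the gamma-activated site (GAS, TTCNNNGAA, which reads alike on both strands) and the kappaB element of NF-kB. Shown are 4 windows: those of Cxcl10, Cxcl14 and Ccl9, each called between KO and HET in the results below and each holding a match, and that of Cxcl9, the next ligand to Cxcl10 in RefSeq order. All 4 are transcribed from the minus strand and are written from 5′ to 3′ of the transcript, with matches in capitals.
Cxcl10, chr5:92348840-92349139: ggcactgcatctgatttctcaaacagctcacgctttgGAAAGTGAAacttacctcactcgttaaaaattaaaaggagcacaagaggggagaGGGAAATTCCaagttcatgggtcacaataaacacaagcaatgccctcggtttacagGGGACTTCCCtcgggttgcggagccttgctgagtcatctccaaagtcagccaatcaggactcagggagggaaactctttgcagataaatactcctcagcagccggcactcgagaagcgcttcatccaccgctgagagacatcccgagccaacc
Cxcl9, chr5:92328030-92328329: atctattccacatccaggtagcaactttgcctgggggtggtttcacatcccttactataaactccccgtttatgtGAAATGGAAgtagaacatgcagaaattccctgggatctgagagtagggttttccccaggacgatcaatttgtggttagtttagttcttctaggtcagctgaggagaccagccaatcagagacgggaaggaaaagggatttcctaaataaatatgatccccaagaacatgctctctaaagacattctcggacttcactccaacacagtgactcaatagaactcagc
Cxcl14, chr13:56296502-56296801: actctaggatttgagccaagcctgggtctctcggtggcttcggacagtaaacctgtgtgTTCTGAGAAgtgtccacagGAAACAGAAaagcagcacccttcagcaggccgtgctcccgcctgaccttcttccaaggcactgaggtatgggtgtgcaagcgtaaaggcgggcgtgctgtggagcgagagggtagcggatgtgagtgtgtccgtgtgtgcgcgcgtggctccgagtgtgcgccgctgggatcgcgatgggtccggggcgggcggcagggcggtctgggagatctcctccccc
Ccl9, chr11:83578587-83578886: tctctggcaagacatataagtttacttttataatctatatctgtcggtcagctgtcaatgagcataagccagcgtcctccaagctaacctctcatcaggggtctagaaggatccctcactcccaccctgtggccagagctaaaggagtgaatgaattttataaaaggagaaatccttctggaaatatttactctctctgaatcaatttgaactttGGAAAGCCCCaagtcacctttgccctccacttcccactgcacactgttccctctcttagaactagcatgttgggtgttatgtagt

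The Cxcl10 window holds an ISRE core starting 213 bases before the start site and kappaB matches starting at 159 and 103 bases. The Cxcl9 window holds an ISRE core 175 bases before the start. The Cxcl14 window holds a GAS match at 191 bases and an ISRE core at 172 bases, and the Ccl9 window holds a kappaB match on the other strand at 35 bases. Over the 23 genes, a window with a kappaB match was found for 7 genes (30.4%: Ccl9, Ccl20, Ccl27a, Cxcl1, Cxcl2, Cxcl3 and Cxcl10), while 4.51% of all 32851 RefSeq windows of this length hold one. The ISRE core was found for 5 genes (21.7%: Ccl1, Ccl3, Cxcl9, Cxcl10 and Cxcl14) against 8.56% of all windows, and the GAS for 2 genes (8.7%, Ccl17 and Cxcl14) against 8.3%. Windows were held for 6 of the 10 ligands called below, and of these only Cxcl10, Cxcl14 and Ccl9 hold a match. The other genes with a match were not called. These shares count genes for the ligands and windows for the background, so the units differ. A match describes the letters of a window and does not show that a factor binds there.

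Values are log2 intensities, so a difference of 1 is a doubling. Array medians, taken over all probe sets, were 2.21 to 2.30, and 12 of the 34 chemokine genes averaged below 2.21. Sizes of differences are uncertain for such dim genes. Probe sets differ in brightness for the same amount of RNA, so no gene's level is set against another's. Lmna itself, the labelled target, lay at 4.25 to 4.40 in HET and 3.67 to 4.09 in KO livers on chow. With HFD it lay at 4.07 to 4.30 in HET and 3.90 to 4.07 in KO livers, a difference of -0.16 ± 0.12 (SE) with an adjusted p of 0.517 by limma. The sources used here do not say whether its probe set lies in the deleted part of Lmna, so this is a weak check of the labels. Correlations between arrays over all genes were 0.989 to 0.994 within groups and 0.980 to 0.994 between groups. Group differences were fitted by limma over all genes with Benjamini-Hochberg adjustment, and a gene was called, or said to rise or fall, at an adjusted p under 0.05. Each liver is a separate mouse. The p values set a difference against the spread between mice, pooled over the 5 groups of 2 or 3 and moderated with that of all genes.

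Several chemokine ligands had higher values in KO than in HET livers. On HFD, 4 of the 34 ligands rose (11.8%, against 5.50% of all genes tested): Cxcl10 3.15-fold, Cxcl16 2.20-fold, Ccl9 2.09-fold and Ccl4 1.84-fold. None of the 34 fell (0 against 2.06% of all genes), although 4 were lower at an unadjusted p under 0.05 (Ccl24, Cxcl12, Cxcl13 and Ccl27a). In the mean of the KO minus HET difference over both diets, which uses 6 livers of each genotype, 8 ligands rose (23.5%, against 6.52%). These were Ccl4, Cxcl14, Cxcl16, Cxcl10, Ccl9, Cx3cl1, Ccl6 and Ccl2. In the same mean, 2 ligands fell (5.88%, against 2.90%): Ccl24 and Cxcl13. The 10 genes called in this mean include all 4 called on HFD, and the other 24 ligands were called in no comparison. In bulk tissue, more cells of a type and more RNA per cell cannot be told apart.

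The median KO minus HET difference over the 34 ligands was 0.37 on HFD (-0.02 over all genes), 0.18 on chow (-0.01) and 0.22 in the mean of both diets (-0.02). Groups did not overlap on HFD for 15 ligands, with 13 higher in KO livers (38.2%, against 13.3% of all genes) and 2 lower (5.88%, against 12.8%). On chow, 4 ligands were higher without overlap (11.8%, against 9.59%) and 4 lower (11.8%, against 9.30%). Among the 34, only Cxcl14 had all 6 KO livers above all 6 HET livers, and only Ccl24 and Cxcl12 had all 6 KO livers below them. Centring each array on its median moves the median of all genes by -0.22 on HFD. The split of all called genes then turns from 1221 higher and 456 lower to 915 higher and 3543 lower, and to 954 and 713 after a further quantile normalization. With that centring, 6 ligands were higher on HFD (Ccl3, Ccl4, Ccl5, Ccl9, Cxcl10 and Cxcl16) and 3 lower (Ccl24, Cxcl12 and Cxcl13). In the mean of both diets the centring moves the median by -0.17 and the split from 1447 and 644 to 1059 and 4906 (1208 and 989 after quantile normalization), and the 10 called ligands kept their directions.

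**Figure D1:**
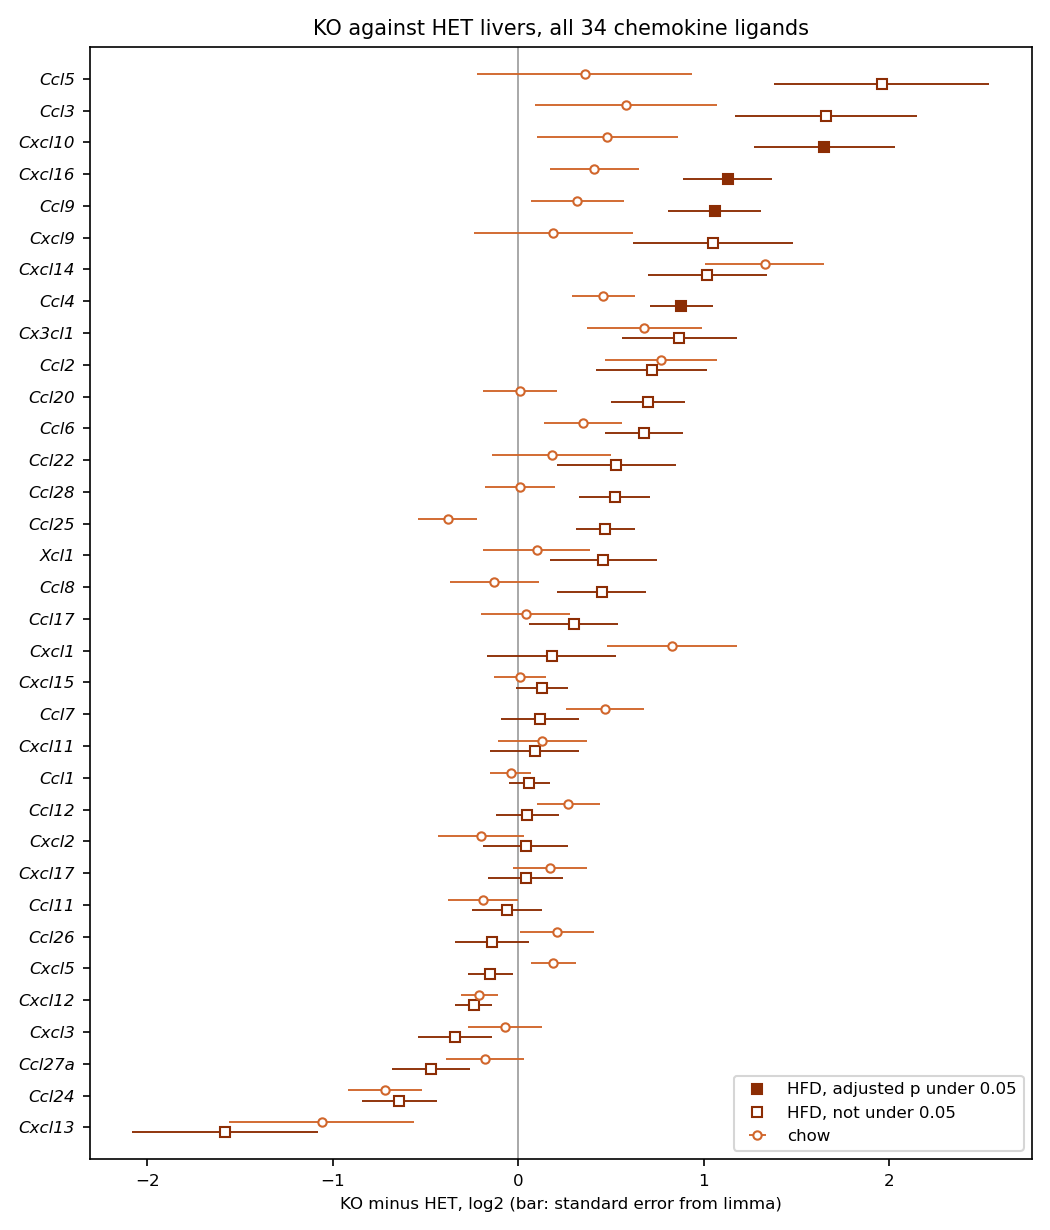
KO minus HET difference (log2, horizontal axis) of each of the 34 chemokine ligands on chow (open circles) and on HFD (squares, filled where the adjusted p is under 0.05), with bars for the standard error from limma. Filled squares mark Cxcl10, Cxcl16, Ccl9 and Ccl4. Ccl24, Cxcl13, Cxcl12, Ccl27a, Cxcl3 and Ccl11 lie below 0 on both diets.

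Ligands of CXCR3, the receptor of activated T cells and NK cells, are Cxcl9, Cxcl10 and Cxcl11, all known as interferon-induced genes. Cxcl10 was at 3.80 and 4.0 in the WT livers on chow. In the other chow livers it was at 5.62, 5.08 and 4.04 in HET (F1, F2, P1) and 5.02, 5.59 and 5.58 in KO (H1, H2, I1). On HFD Cxcl10 was at 3.71, 4.43 and 5.17 in HET (A2, B1, B2) and 6.03, 6.36 and 5.88 in KO (C2, C3, C4). The KO livers on HFD lay above every other array, while KO and HET overlapped on chow. On HFD the difference was 1.65 ± 0.38 (SE, n = 3 and 3; limma adjusted p = 0.0196). The mean of both diets gave 1.07 ± 0.27 (adjusted p = 0.0258). The call on HFD was lost without A2, B1, C2 or C3, with adjusted p values of 0.0551 to 0.0743. The call in the mean was lost without H2, I1, A2, B1 or C3, with 0.0521 to 0.0645.

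Cxcl9, whose promoter window holds an ISRE core but no kappaB match, was at 8.38 and 8.30 in WT and at 9.63, 9.10 and 7.96 in HET livers on chow. KO livers on chow were at 8.93, 9.12 and 9.21. On HFD Cxcl9 was at 7.48, 9.12 and 9.22 in HET and 9.81, 9.41 and 9.75 in KO livers. The groups on HFD do not overlap, but A2 lay far below the other HET livers and the difference of 1.05 ± 0.43 was not called (adjusted p = 0.187). Cxcl9 is given here with every array because it is the next ligand to Cxcl10, a choice made after its values were seen. Cxcl11 ranged from 4.50 to 5.68 over the 14 arrays and differed by 0.09 between KO and HET on HFD (95% interval -0.43 to 0.61).

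Cxcl16 is a membrane-bound ligand of CXCR6, carried by T cell and NKT cell subsets, and is shed by the protease Adam10. It was at 6.75 and 6.60 in WT, 7.29, 6.87 and 6.21 in HET and 7.06, 7.29 and 7.27 in KO livers on chow. Under HFD the values were 6.62, 6.47 and 7.17 in HET and 8.0, 7.68 and 7.98 in KO livers. The 3 KO livers on HFD again lay above every other array, and on chow the genotypes overlapped. The KO minus HET difference was 1.13 ± 0.24 on HFD (adjusted p = 0.0115) and 0.77 ± 0.17 in the mean of both diets (0.0113). Leaving out B1 ended the call on HFD (adjusted p = 0.0517), and no single array ended that of the mean.

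Cxcl14 is an epithelial chemokine without a settled receptor. It was at 3.56 and 4.26 in WT and 4.10, 3.20 and 4.22 in HET livers on chow, and at 4.86, 5.08 and 5.56 in KO livers. Under HFD the values were 4.52, 4.36 and 3.79 in HET and 5.61, 4.71 and 5.41 in KO livers. Every KO liver lay above every HET and WT liver, whichever diet was fed. Over both diets Cxcl14 rose by 1.17 ± 0.23, or 2.25-fold (adjusted p = 0.00542), a call that no single array ended. The separate differences, 1.33 ± 0.32 on chow (adjusted p = 0.0581) and 1.02 ± 0.32 on HFD (0.0773), did not pass.

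Cxcl13 attracts B cells through CXCR5. It was at 6.90 and 6.62 in WT, 5.99, 5.92 and 6.75 in HET and 4.98, 4.89 and 5.60 in KO livers on chow. Under HFD the values were 8.34, 7.17 and 7.53 in HET and 5.78, 5.02 and 7.49 in KO livers. KO lay below HET without overlap on chow, while on HFD the KO liver C4 lay within the HET range and apart from C2 and C3. Over both diets Cxcl13 fell by 1.32 on the log2 scale (SE 0.35, adjusted p = 0.0329). The call was lost without P1, H1, H2, A2, B2, C2 or C3 (adjusted p 0.0530 to 0.0774). Of 4 measured B cell markers 0 were called by limma between KO and HET on either diet, and 1 on HFD had an unadjusted p under 0.05. Among all genes, 1.92% were called on chow, while 5.50% rose and 2.06% fell on HFD. The differences of the 4 markers were all above 0 on HFD, and on chow 1 was above and 3 were below 0. The mean of those 4 markers ranged from 2.45 to 2.83 in HET and 2.63 to 2.73 in KO livers on chow, and from 2.54 to 3.02 in HET and 2.65 to 3.47 in KO livers on HFD.

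Cxcl12, the stromal ligand of CXCR4 that retains leukocytes in tissue, was lower in every KO liver by a small amount. It lay at 9.49 to 9.60 in HET and 9.20 to 9.46 in KO livers on chow, and at 9.46 to 9.53 in HET and 9.15 to 9.33 in KO livers on HFD. Before rounding no KO liver reached any HET liver, yet the mean difference of -0.22 ± 0.07 did not pass (adjusted p = 0.0615). WT livers were at 9.34 and 9.33, within the range of KO livers on chow. Cxcl17, a mucosal chemokine, was dim at a mean of 1.87 and was not called.

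**Figure D2:**
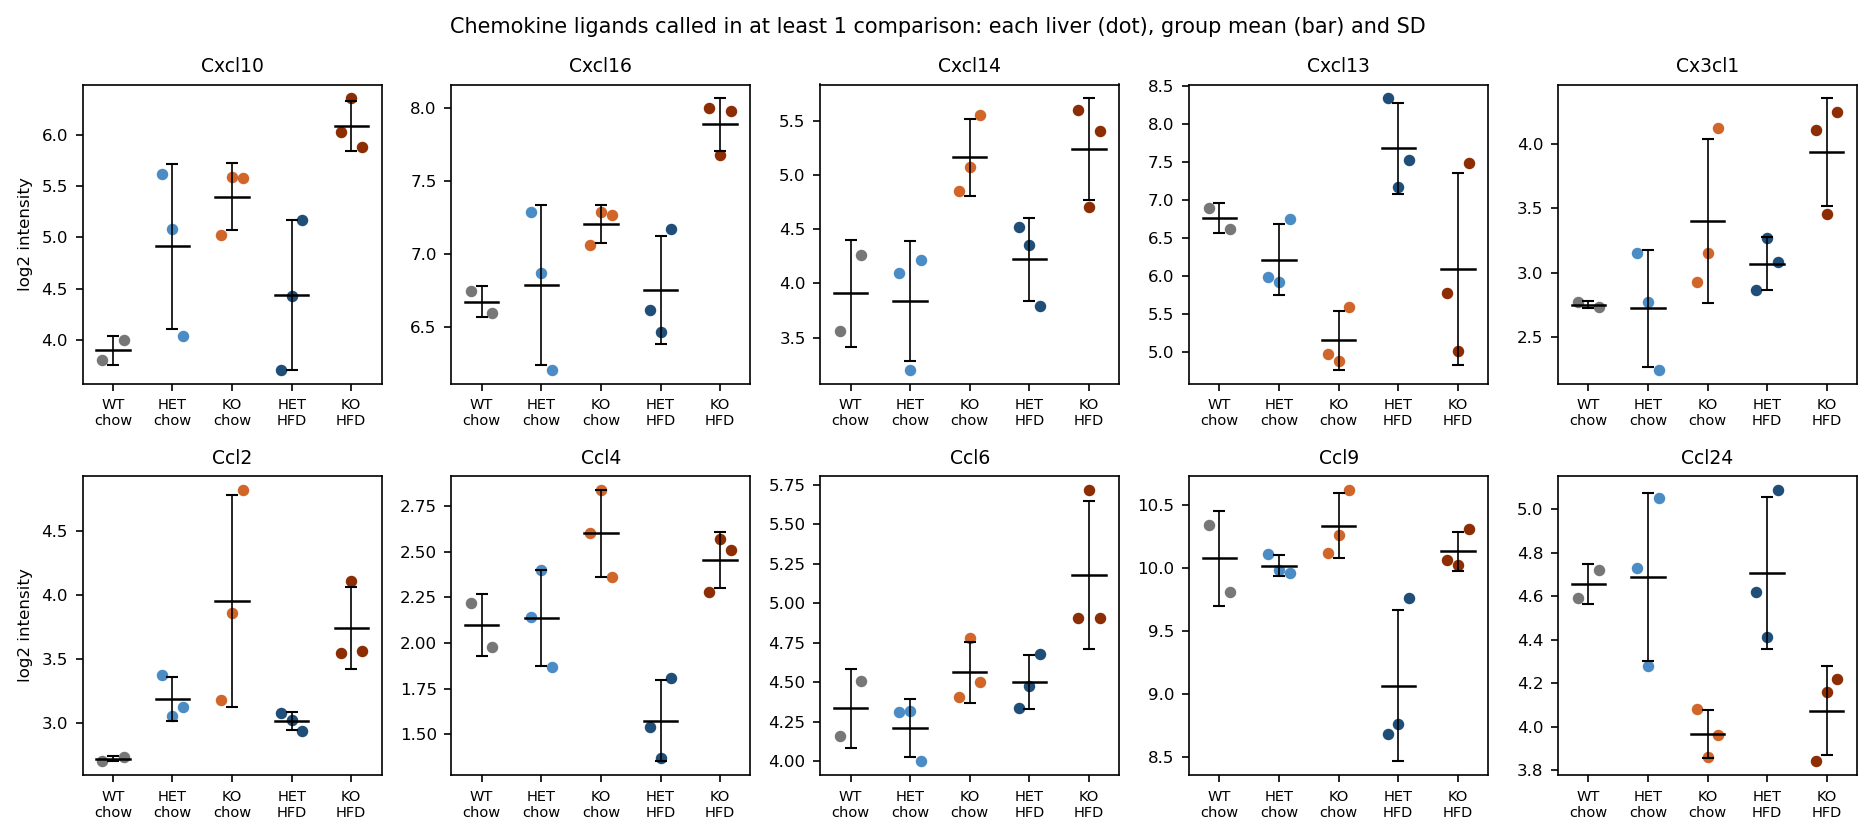
Log2 intensity (vertical axis, its range set for each gene) of the 10 chemokine ligands called in at least 1 comparison, for each liver (dot) in the 5 groups, with the group mean (bar) and SD. KO livers on HFD lie above HET livers on HFD for 8 genes, below them for Ccl24, and overlap them for Cxcl13.

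CXC ligands with the ELR motif act on CXCR2 and attract neutrophils, and none of the 5 was called. Only Cxcl1 averaged above 3 among them, at 5.12. It was at 4.65, 6.05 and 6.01 in KO and 4.51 to 5.03 in HET livers on chow, where H1 stood apart from H2 and I1 and the difference was 0.83 ± 0.35 (adjusted p = 0.312). On HFD Cxcl1 was at 5.08 to 5.31 in KO livers, inside the HET range of 4.34 to 5.58. Cxcl2, Cxcl3, Cxcl5 and Cxcl15 averaged 1.21 to 2.10. Of 7 neutrophil markers, 6 also averaged below the array medians (Ly6g, S100a8, S100a9, Mpo, Elane and Retnlg), none was called between KO and HET (0 by limma, and 0 at an unadjusted p under 0.05 on either diet), and the mean over the list was 1.85 to 2.07 on all 14 arrays. Among all genes, 1.92% were called on chow, while 5.50% rose and 2.06% fell on HFD.

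Ccl2, Ccl7 and Ccl12 act on CCR2, the receptor that draws inflammatory monocytes into tissue. Ccl2 was at 2.71 and 2.74 in WT, 3.38, 3.06 and 3.13 in HET and 3.18, 3.86 and 4.82 in KO livers on chow. On HFD Ccl2 was at 3.08, 3.03 and 2.94 in HET and 3.55, 4.11 and 3.56 in KO livers. I1 had the highest value of all arrays, and 5 of the 6 KO livers lay above all 6 HET livers. Ccl2 rose by 0.74 ± 0.21 in the mean of both diets (1.68-fold, adjusted p = 0.0459). The margin is thin, since leaving out any of 12 arrays (all but H1 and I1) ended the call, with adjusted p values of 0.0585 to 0.105. Ccl7, at 2.18 to 2.60 in HET and 2.76 to 2.85 in KO livers on chow, did not overlap there but was not called (0.47 ± 0.21, adjusted p = 0.352). Ccl12 was dim, at 1.64 on average, and was not called.

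A further 9 CC ligands, among them those of CCR1 and CCR3, attract monocytes, T cells and eosinophils. Of these 9 genes, 3 rose and 1 fell in the mean of both diets. Ccl4, made by macrophages, T cells and NK cells, was at 2.22 and 1.98 in WT, 2.14, 2.40 and 1.87 in HET and 2.60, 2.84 and 2.36 in KO livers on chow. On HFD Ccl4 was at 1.54, 1.37 and 1.81 in HET and 2.28, 2.57 and 2.51 in KO livers. The genotypes overlapped on chow, where F2 exceeded I1, and were apart on HFD, where HET livers had the lowest values of the series. Ccl4 rose by 0.88 ± 0.17 on HFD (adjusted p = 0.00734) and by 0.67 ± 0.12 in the mean of both diets (0.00342), and no single array ended either call. Its values straddle the array medians, so the size of the change is uncertain.

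Ccl9, a CCR1 ligand of the myeloid lineage, was at 10.34 and 9.81 in WT, 10.11, 9.98 and 9.96 in HET and 10.12, 10.26 and 10.62 in KO livers on chow. On HFD Ccl9 was at 8.68, 8.76 and 9.76 in HET and 10.06, 10.02 and 10.31 in KO livers. KO livers on HFD thus lay within the range of the chow livers, and A2 and B1 were the lowest of all arrays. The difference on HFD was 1.06 ± 0.25 (adjusted p = 0.0202), and that of the mean of both diets 0.69 ± 0.18 (0.0262). In HET livers, HFD minus chow was -0.95 ± 0.25 and was not called (adjusted p = 0.184). The call on HFD was lost without A2, B1, C2 or C4 (adjusted p 0.0535 to 0.0819), and that of the mean without F2, I1, A2, B1 or C4 (0.0572 to 0.0712).

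Ccl6, the next ligand to Ccl9 on chromosome 11 and like it a CCR1 ligand, was at 4.16 and 4.51 in WT, 4.31, 4.32 and 4.0 in HET and 4.41, 4.78 and 4.50 in KO livers on chow. On HFD Ccl6 was at 4.34, 4.48 and 4.68 in HET and 4.91, 5.72 and 4.91 in KO livers. KO lay above HET on both diets, and C3 stood above all other arrays. Ccl6 rose by 0.52 ± 0.15 in the mean of both diets (1.43-fold, adjusted p = 0.0423). That call was lost without F1, F2, P1, H2, I1, A2, B1 or C3 (adjusted p 0.0559 to 0.100), and it was lost when arrays were centred on their medians (0.35, adjusted p = 0.0886).

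Ccl24, also named eotaxin-2, attracts eosinophils through CCR3. It was at 4.59 and 4.72 in WT, 4.73, 4.28 and 5.05 in HET and 4.08, 3.86 and 3.96 in KO livers on chow. Under HFD the values were 4.62, 4.41 and 5.09 in HET and 3.84, 4.16 and 4.22 in KO livers. Every KO liver lay below every HET and WT liver. Ccl24 fell by 0.68 on the log2 scale in the mean of both diets (SE 0.14, 0.625-fold, adjusted p = 0.00919), with no single array ending the call. Its separate differences of -0.72 ± 0.20 on chow and -0.64 ± 0.20 on HFD did not pass (adjusted p = 0.105 and 0.0785). The other eotaxins, Ccl11 and Ccl26, were dim at 2.59 and 1.59 and were not called.

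The largest KO minus HET differences on HFD belonged to 2 ligands that were not called, Ccl5 and Ccl3. Ccl5, made by activated T cells and NK cells, was at 6.54 and 4.65 in WT and 7.62, 5.86 and 5.03 in HET livers on chow. KO livers on chow were at 6.52, 7.02 and 6.05, and on HFD HET livers were at 4.71, 5.25 and 5.85 and KO livers at 7.19, 7.13 and 7.38. The HET liver F1 on chow had the highest value of all arrays, while on HFD the genotypes were apart by 1.96 ± 0.58 (3.89-fold, adjusted p = 0.0606).

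Ccl3, a CCR1 ligand made by macrophages, was at 3.37 and 3.17 in WT, 5.02, 3.12 and 2.68 in HET and 4.27, 4.74 and 3.56 in KO livers on chow. On HFD Ccl3 was at 2.62, 3.35 and 3.64 in HET and 5.04, 4.95 and 4.61 in KO livers, a difference of 1.66 ± 0.49 (3.17-fold, adjusted p = 0.0579). F1 was again the highest of the 6 HET livers, and only C2 exceeded it. F1 enters the test on HFD only through the spread shared by all groups. Without F1, both genes were called on HFD (Ccl3 adjusted p = 0.00587, Ccl5 0.0182). Over the 23 alternatives run, Ccl3 was called on HFD in 6 and Ccl5 in 8, with adjusted p values of 0.00587 to 0.998 and of 0.00649 to 0.609. Ccl8, a ligand of CCR8 in mice and of other CC receptors, averaged 2.20 and was not called, although C4 stood out at 3.31 beside 1.93 to 2.28 elsewhere.

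The means of T cell and of NK cell markers were high on the same arrays. The mean of the 6 measured T cell markers of 7 listed was 4.38 in F1, 3.63 and 3.14 in the other HET livers on chow, 3.54 to 3.79 in KO livers on chow, 3.34 to 3.84 in HET livers on HFD and 4.30 to 4.37 in KO livers on HFD. The mean of 6 NK cell markers was 2.48 in F1, 1.98 in F2, 2.01 in P1 and 1.97 to 2.02 in KO livers on chow. It was 1.93 to 2.16 in HET livers and 2.36 to 2.58 in KO livers on HFD. F1 and the KO livers on HFD were thus high in Ccl5, Ccl3, Cxcl9 and both marker means. Single NK cell markers differed between them. Gzma was at 4.70 in F1 and 2.29 to 2.58 in KO livers on HFD, and Ncr1 at 1.92 and 2.50 to 4.43. KO minus HET differences of the 6 NK cell markers on HFD were above 0 for 3 and below 0 for 3. On HFD, 1 of 6 T cell markers (Cd8b1) and 1 of 6 NK cell markers (Ncr1) rose in KO livers, while 5.50% of all genes rose. Of these markers Cd3d, Klrb1c, Gzmb and Prf1 averaged below the array medians. The part of these cells in the chemokine values was not tested.

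**Figure D3:**
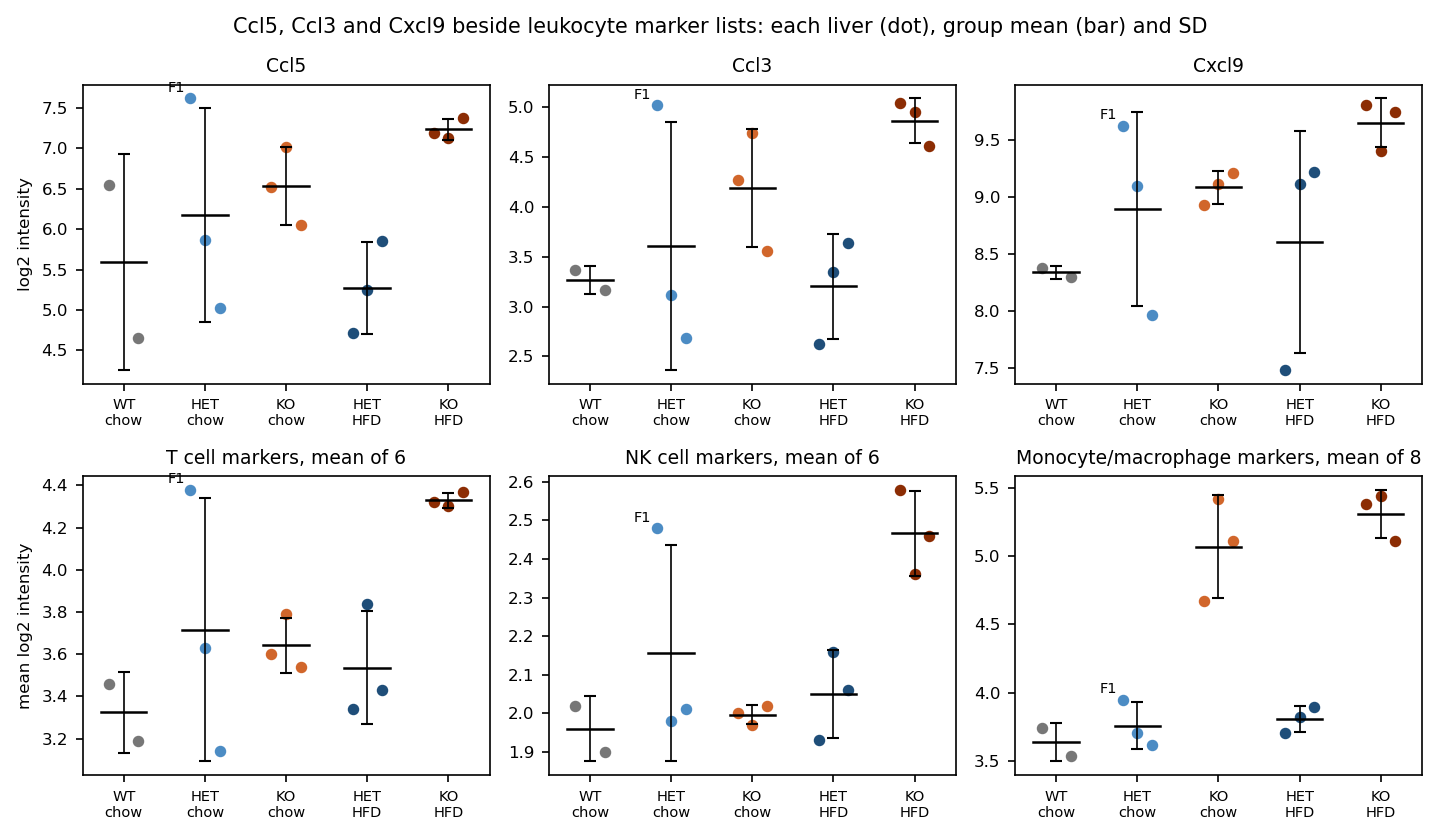
Log2 intensity of Ccl5, Ccl3 and Cxcl9 (top) and mean log2 intensity of 6 T cell, 6 NK cell and 8 monocyte and recruited macrophage markers (bottom) in each liver (dot), with group mean (bar) and SD. The HET liver F1 reaches 7.62 for Ccl5 and 4.38 for the T cell mean, level with the KO livers on HFD, but 3.95 for the monocyte and macrophage mean, below all KO livers.

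The ligands of CCR4, Ccl17 and Ccl22, averaged 2.28 and 2.24 and were not called. Their KO minus HET differences on HFD were 0.30 ± 0.24 and 0.53 ± 0.32. Among the 5 lymphoid and mucosal CC ligands, none was called. Ccl20, which attracts CCR6-bearing cells, was at 1.97 to 2.30 in HET and 1.68 to 2.38 in KO livers on chow, at 1.68 to 2.13 in HET and 2.27 to 2.92 in KO livers on HFD, and differed on HFD by 0.70 ± 0.20 (adjusted p = 0.0574). Ccl28, a mucosal chemokine, was at 1.49 to 1.74 in HET and 1.75 to 2.46 in KO livers on HFD (0.52 ± 0.19, adjusted p = 0.123), which is below or near the array medians. Ccl27a, known from skin, was at 4.08 to 5.11 in HET and 4.12 to 4.37 in KO livers on HFD and was not called. Its second probe set was dimmer, at 2.51 on average. Ccl1 averaged 1.24.

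Ccl25, the CCR9 ligand of thymus and gut, had opposite differences on the 2 diets. It was at 5.81 and 6.14 in WT, 5.84, 5.92 and 6.05 in HET and 5.65, 5.60 and 5.43 in KO livers on chow, so that KO lay below. Under HFD the values were 5.25, 5.82 and 5.53 in HET and 6.00, 5.75 and 6.25 in KO livers, so that KO lay higher with an overlap of B1 and C3. The differences were -0.38 ± 0.16 on chow (adjusted p = 0.332) and 0.47 ± 0.16 on HFD (0.113). The interaction of genotype and diet, 0.85 with an SE of 0.23, had an unadjusted p of 0.00301 and an adjusted p of 0.267, and was not called.

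Cx3cl1, or fractalkine, is a membrane-anchored ligand of CX3CR1 on monocytes and macrophages and is also shed by Adam10. It was at 2.77 and 2.73 in WT, 3.15, 2.77 and 2.24 in HET and 2.93, 3.15 and 4.13 in KO livers on chow. Under HFD the values were 2.86, 3.27 and 3.08 in HET and 4.11, 3.46 and 4.25 in KO livers. I1, C2 and C4 lay far above the HET livers, C3 only just, and H1 and H2 within their range. Cx3cl1 rose by 0.77 ± 0.22 in the mean of both diets (1.71-fold, adjusted p = 0.0407), a call that leaving out any array but F1, H1 or C3 ended (adjusted p 0.0511 to 0.0993). Xcl1, made by T cells and NK cells, was at 2.20, 2.35 and 3.42 in HET and 3.44, 2.67 and 3.22 in KO livers on HFD and was not called.

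On chow, no chemokine ligand was called between KO and HET (0 of 34, against 1.92% of all genes). At an unadjusted p under 0.05 there were 9 (26.5%, against 13.4%). Between KO and WT on chow none was called (0, against 1.65%), and 9 had an unadjusted p under 0.05 (26.5%, against 11.8%). HET and WT livers differed in none (0, with 0% of all genes called), and at an unadjusted p under 0.05 only in Cxcl10 (4.30% of all genes). The HET minus WT difference of Cxcl10 was 1.01 ± 0.43 (adjusted p = 0.999). Centring arrays turned the split of all called genes on chow from 320 higher and 106 lower to 248 and 261 for KO against HET, and from 276 and 91 to 213 and 147 for KO against WT, with no ligand called in either.

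No chemokine ligand was called for diet. In HET livers, HFD against chow gave 0 ligands (0.198% of all genes) and 4 at an unadjusted p under 0.05 (11.8%, against 10.2%). Of these, Ccl25, Ccl4 and Ccl9 were lower on HFD and Cxcl13 higher (1.46 ± 0.50, adjusted p = 0.329). In KO livers it gave 0 (0.316% of all genes) and 6 at the unadjusted threshold (17.6%, against 11.1%): Ccl20, Ccl25, Ccl6, Ccl8, Cxcl16 and Xcl1, all with higher values on HFD. The largest of these was Cxcl16, at 0.68 ± 0.24 (adjusted p = 0.300). For the interaction of genotype and diet no ligand was called (0, against 0.0361% of all genes), and Ccl25 and Ccl20 had an unadjusted p under 0.05 (5.88%, against 9.86%). The larger number of ligands called on HFD than on chow is therefore not shown to be a difference between the diets.

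Of 24 chemokine receptors and scavenging receptors listed, 23 were measured. Cx3cr1, the receptor of Cx3cl1, was at 2.52 to 2.87 in HET and 5.20 to 5.43 in KO livers on chow, and at 2.82 to 3.38 in HET and 5.70 to 6.11 in KO livers on HFD. It rose by 2.61 ± 0.17 on chow and by 2.87 ± 0.17 on HFD (adjusted p = 3.25e-06 and 1.26e-06), with no overlap. Cxcr4, the receptor of Cxcl12, rose on HFD by 1.99 ± 0.51 (adjusted p = 0.0313), with HET livers at 2.89, 3.25 and 4.97 and KO livers at 5.84, 5.72 and 5.53. In the mean of both diets, Ccr2, the receptor of Ccl2, rose by 1.06 ± 0.24 (adjusted p = 0.0139), and the non-signalling receptor Ccrl2 by 0.49 ± 0.13 (0.0336). No receptor fell. Called receptors were 1 of 23 on chow (4.35%, against 1.92% of all genes called in either direction), 2 on HFD (8.70%, against 5.50% of all genes higher) and 3 in the mean (13.0%, against 6.52% higher). Cxcr4 was not among those of the mean, and the share on HFD is close to the background. Cxcr3, the receptor of Cxcl9 and Cxcl10, was at 2.38 to 2.75 in HET and 2.84 to 3.47 in KO livers on HFD and was not called (0.52 ± 0.17, adjusted p = 0.0859).

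**Figure D4:**
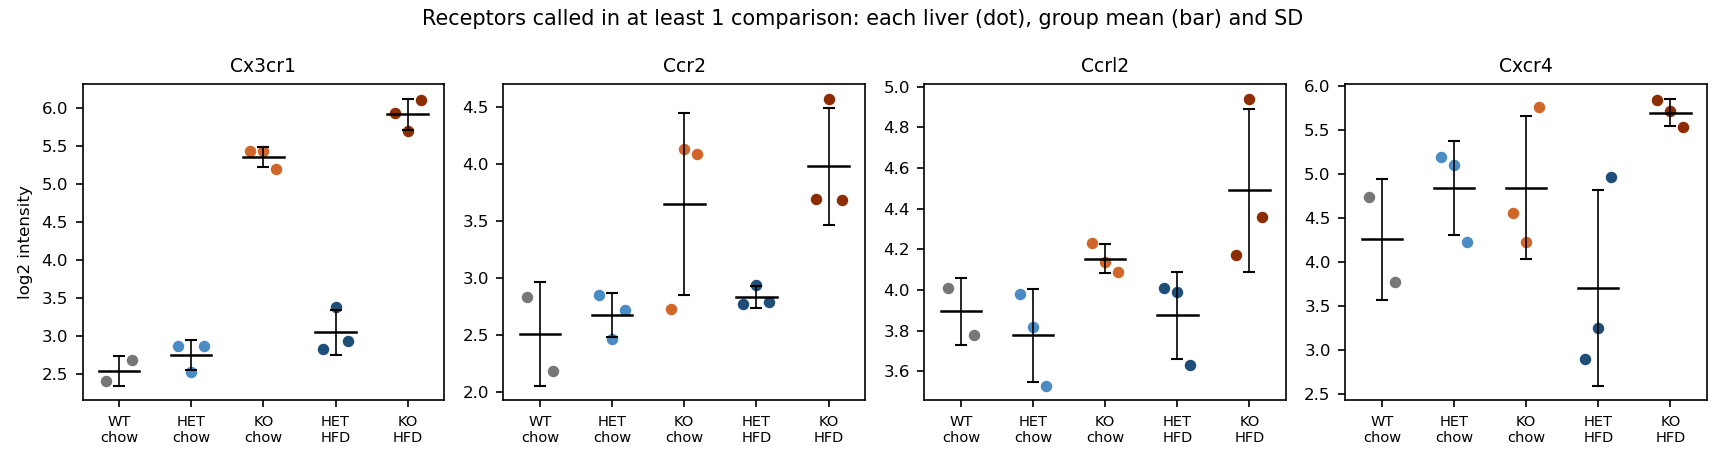
Log2 intensity (vertical axis, its range set for each gene) of the 4 chemokine receptors called in at least 1 comparison, for each liver (dot) with group mean (bar) and SD. Cx3cr1 lies at 5.20 to 6.11 in all KO livers and at 2.40 to 3.38 in all others.

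The mean of markers of monocytes and recruited macrophages was higher in KO livers on both diets. The mean of 8 measured markers, which include Cx3cr1 and Ccr2, was 3.54 and 3.74 in WT, 3.62 to 3.95 in HET and 4.67 to 5.42 in KO livers on chow. On chow 3 of the 8 rose, against 1.92% of all genes called in either direction. Under HFD the mean was 3.71 to 3.90 in HET and 5.11 to 5.44 in KO livers, where 5 of the 8 rose (Cx3cr1, Gpnmb, Itgam, Ly6c2 and Trem2) and Fn1, which hepatocytes also make, fell. Of all genes, 5.50% rose and 2.06% fell on HFD. Chil3, also among the 8, averaged below the array medians. Of the 7 Kupffer cell markers only Timd4 was called, and it fell by 1.39 on HFD. Differences of the 7 on HFD were above 0 for 5 and below 0 for 2. Of 6 dendritic cell markers 1 was called on HFD: Siglech, a marker of plasmacytoid dendritic cells, rose by 1.52. Differences of the 6 were above 0 for 4 and below 0 for 2 (Xcr1 and Cd209a). Of 8 stellate markers 3 rose on HFD, the collagens Col1a1, Col1a2 and Col3a1, by 1.46 to 2.07. Another stellate marker, Reln, fell by 0.76. The mean of 7 hepatocyte markers was 11.95 to 11.99 in HET and 11.61 to 11.73 in KO livers on HFD. Whether these cell types account for the chemokine values was not tested.

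Genes upstream of chemokine induction were measured for 31 of 34 listed. On HFD, 9 rose in KO livers and 2 fell (35.5% called, where 5.50% of all genes rose and 2.06% fell; median 0.46 against -0.02 for all genes). The rise included the Toll-like receptors Tlr2 (1.14 ± 0.20), Tlr3 (1.16 ± 0.19), Tlr4 (0.46 ± 0.12) and Tlr9 (1.54 ± 0.35), and the NF-kB inhibitors and targets Nfkbie (1.36 ± 0.18) and Tnfaip3 (1.88 ± 0.43). Map3k14, the kinase of the non-canonical NF-kB pathway, and the adhesion molecule Icam1 rose too (0.88 ± 0.24 and 1.56 ± 0.37). Irf7, the interferon regulatory factor, was at 6.83 to 7.37 in HET and 9.96 to 10.21 in KO livers on chow, and at 7.49 to 7.65 in HET and 9.37 to 9.55 in KO livers on HFD. It rose by 3.08 ± 0.18 on chow and 1.88 ± 0.18 on HFD (adjusted p = 2.50e-06 and 9.76e-05). The cytokine genes Ifng and Il17a fell on HFD (-0.64 ± 0.17 and -0.48 ± 0.12), both from dim probe sets averaging 2.13 and 1.53. On chow 3 of the 31 rose (Irf7, Irf9 and Stat2, 9.68%, against 1.92% of all genes). In the mean of both diets 13 rose and 1 fell (45.2% called, where 6.52% of all genes rose and 2.90% fell). Nfkb2, Relb and Tlr7 rose in the mean without a call on either diet. Not every gene called on a single diet was called in the mean.

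Of 21 genes of ligand processing and other chemoattractants, 19 were measured. Mmp2, a protease that trims several chemokines, rose on chow by 1.47 ± 0.30 and on HFD by 1.49 ± 0.30 (adjusted p = 0.0265 and 0.00974). Adam10, which sheds Cxcl16 and Cx3cl1, rose on HFD by 0.39 ± 0.10 (adjusted p = 0.0342), and the macrophage growth factor Il34 rose by 0.80 ± 0.19 (0.0200). Called genes were 1 of 19 on chow (5.26%, against 1.92% of all genes called in either direction) and 3 on HFD (15.8%, against 5.50% higher). None of the 19 fell on either diet (on HFD 2.06% of all genes fell). These arrays measure RNA, so the amounts of shed or trimmed protein are not known from them.

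The genes called in the mean of both diets lie on several chromosomes. Only chromosome and gene order were looked at, so clusters were not defined. In this mean 6.52% of all genes rose and 2.90% fell, and 8 of the 34 ligands rose and 2 fell. The shares of all genes on each chromosome were not computed. Chromosome 11 holds 12 of the 34 ligands, of which 5 were called (Cxcl16, Ccl2, Ccl9, Ccl6 and Ccl4), all higher. Chromosome 5 holds 11, of which 3 were called, with Cxcl10 higher and Cxcl13 and Ccl24 lower. Chromosome 8 holds 4 with Cx3cl1 called, and chromosome 13 holds 2 with Cxcl14 called.

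All calls depended on how age was treated. With age in weeks as a linear term, none of the 14 calls over 10 genes remained, and 7 of them changed sign. In that fit Cxcl14 kept its direction at 3.39 ± 1.31 (adjusted p = 0.335). Standard errors of the mean difference grew from 0.12 to 0.35 without age to 0.68 to 2.26 with it.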

How the data were processed

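Total RNA was purified with RNeasy columns and 400 ng was labelled with the WT Plus kit, per the labels' protocols. Each probe set has a deposited log2 intensity, and the submitters' processing notes name RMA and limma without versions. The sources used here do not state any batch adjustment, and scanner files were not used here. Of 41345 probe sets, 23521 carry 1 symbol, 1814 several and 16010 none. The 22180 genes with a one-symbol probe set were tested without a filter on level. Limma 3.58.1 (R 4.3.3) fitted 8 contrasts of 5 group means over 14 arrays (residual degrees of freedom 9, prior 3.83). The procedure was tested on simulated data. The number of arrays limits the precision. Members called in any contrast were named with every array, and of the others the 6 with the smallest p (Ccl25, Ccl20, Ccl3, Ccl5, Cxcl12 and Ccl28). Pathway genes were named where called. The members, lists and tests were chosen with earlier results of these data known. Alternatives were array weights, a trended and robust prior, a filter on dim genes, averaging a gene's probe sets, only the groups compared, centring, quantile normalization, a random block for the array name's letter, age, a stricter threshold, pooled chow controls and leaving out each array. Promoters are RefSeq's, of GRCm38.p6.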

Additional observations from a re-analysis of the deposited data

Results flagged for a closer look

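Ccl25 stood out because its KO minus HET difference had opposite signs on the 2 diets, with every KO liver on chow below every HET liver. The interaction of genotype and diet was 0.85 ± 0.23 (SE), with a limma adjusted p of 0.267 over all genes, so the difference between diets did not pass. Without adjustment its p was 0.00301, the smallest of the 34 ligands for that contrast. Single outlying livers were not tested in groups of 2 or 3.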

How the results depend on the processing

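Direction was kept for the 14 calls under every alternative run except age, but the filter on dim genes removed Ccl4, so its 2 calls have no value there. With age as a linear term 0 ligands were called on HFD and 0 in the mean of both diets. Signs then turned for Cxcl16 on HFD (-0.01) and, in the mean, for Ccl24 (0.77), Ccl4 (-0.57), Ccl9 (-0.15), Cx3cl1 (-0.74), Cxcl10 (-1.06) and Cxcl16 (-1.28). Age is nearly fixed by group, so that fit has little information. For KO against HET on HFD, where 4 ligands were called, centring gave 9, an adjusted p under 0.01 gave 1, and leaving out single arrays gave 1 (B1) to 6 (F1, F2, P1 or I1). Centring also took all called genes on HFD from 1221 higher and 456 lower to 915 and 3543. The other counts of ligands in this section are not set against the share of all genes called under each setting. For the mean of both diets, with 10 called, the stricter threshold gave 3 and leaving out arrays gave 4 (A2) to 11 (H1), while the random block for the array name's letter gave 8, without Ccl2 (adjusted p = 0.0531) and Ccl6 (0.0535). On chow, KO against HET went from 0 to 1 with array weights, with the trended and robust prior or with the dim filter (Cxcl14 each time), to 2 with WT and HET pooled, and lay at 0 to 2 without single arrays (1 without P1 or C3, 2 without H1). KO against WT went from 0 to 1 in a fit of only the groups compared and lay at 0 to 1 without single arrays (1 without G1, H1 or H2). HFD against chow in HET lay at 0 to 1 (1 without B2). Apart from age, adjusted p ran from 0.00463 to 0.0342 for Ccl4, 0.00309 to 0.0517 for Cxcl16, 0.00636 to 0.0743 for Cxcl10 and 0.00110 to 0.0819 for Ccl9 on HFD. In the mean it ran from 0.00341 to 0.0173 for Cxcl14, 0.00155 to 0.0273 for Ccl24, 0.0273 to 0.209 for Ccl6, 0.00379 to 0.107 for Ccl2 and 0.0232 to 0.0993 for Cx3cl1. The causes were not tested. No paired analysis was possible because array names are not shared between groups.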

Other observations

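Probe sets annotated with several symbols were outside the 34 genes, and they hold the lymphoid chemokines Ccl19 and Ccl21, the ligands of CCR7 that guide T cells and dendritic cells. In a fit over all 41345 probe sets, 2 of 13 Ccl19 probe sets were called higher in KO than in HET livers on HFD and 5 of 13 in the mean of both diets (smallest adjusted p = 0.0136 and 0.0247). The differences of the 13 ran from -0.73 to 1.33 on HFD. Of all genes tested, 5.50% rose on HFD and 6.52% in the mean. The share over all probe sets was not computed. Of 9 Ccl21 probe sets, 0 were called by limma in any contrast, 0 had an unadjusted p under 0.05, and differences in the mean of both diets ran from -0.67 to -0.32. Of 13 probe sets of the Ccl27 family, which include those of Ccl27a, 2 were called lower in the mean of both diets, where differences ran from -0.51 to 0.02. In that mean 2.90% of all genes fell. Apart from those of Ccl27a, each of these probe sets lists several genes and cannot be given to 1 of them. In each family several probe sets gave the same values, so the counts are not counts of separate measurements.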
